A study of Mus musculus with 4 samples.

Results

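The regions described here are peaks of AE4, an antibody used for the somatic linker histones, that lay inside genes and met no peak of the oocyte linker histone H1foo. Members were chosen by peak position in the 2 lists: AE4 peaks on chromosomes 1 to 19 that shared no base with any H1foo peak. The peak centre also had to lie in an NCBI RefSeq protein-coding gene span (GRCm38.p6, the assembly behind mm10) and more than 2 kb from every such gene's boundaries. The rule found 11983 members among the 47493 AE4 peaks, or 25.4% of the 47206 on autosomes, and both lists together held 145318 peaks. The H1foo list held 97825 peaks, 97617 of them on autosomes. The 4 libraries, 2 with the mouse monoclonal AE4 and 2 with a rabbit polyclonal raised in-house against H1foo, were from 1 kind of cell. This was a mouse ES cell (129S4/SvJae background) that overexpresses an H1foo-GFP fusion. No library from cells without the H1foo transgene was analysed here. The authors deposited 1 peak list per antibody, so no value has replicates, no test was possible, and the depth behind each list is unknown.

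Linker histones bind the nucleosome where DNA enters and leaves it and favour folding of the chromatin fibre. Somatic variants are found along most of the genome, whereas H1foo is made in the oocyte and early embryo and replaces them on chromatin introduced into the egg. The label "AE4-only" states that the H1foo list had no peak there, and an unlisted H1foo signal below the caller's threshold cannot be told apart from none. Whether AE4 also recognises H1foo, and whether an input control was used, is not stated in the labels or the lists.

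Sequence could be read where a member covered an annotated transcription start inside a gene. RefSeq start windows run from 250 bases before to 50 after a start. In 5397 windows the start itself passed the rule on gene position. Where such windows overlapped on 1 strand only the first by coordinate was kept, which left 5018. Members met 66 of these windows (1.32%), shared AE4 peaks inside genes met 158 (3.15%) and H1foo-only peaks inside genes met 594 (11.8%). By peak, 62 members (0.517%) met a start window, against 156 shared AE4 peaks (1.098%) and 579 H1foo-only peaks (1.49%). Neither measure allows for the width of the peaks. The first 6 windows printed lay wholly under members with high scores, and the last 2 wholly under shared AE4 peaks with high scores. They are shown to set out the letters behind the CG counts given next. All are from RefSeq on GRCm38.p6, 5′ to 3′ on the strand of the start, with every CG dinucleotide in capitals.
Gm34369 start, chr5:76776529-76776828 (minus strand): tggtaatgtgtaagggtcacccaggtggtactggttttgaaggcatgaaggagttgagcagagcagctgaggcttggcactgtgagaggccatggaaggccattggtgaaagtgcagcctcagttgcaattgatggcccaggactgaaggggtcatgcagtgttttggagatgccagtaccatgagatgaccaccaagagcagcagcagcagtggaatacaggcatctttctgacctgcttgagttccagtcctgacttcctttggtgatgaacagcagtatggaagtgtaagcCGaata
Gm51541 start, chr8:83583276-83583575 (minus strand): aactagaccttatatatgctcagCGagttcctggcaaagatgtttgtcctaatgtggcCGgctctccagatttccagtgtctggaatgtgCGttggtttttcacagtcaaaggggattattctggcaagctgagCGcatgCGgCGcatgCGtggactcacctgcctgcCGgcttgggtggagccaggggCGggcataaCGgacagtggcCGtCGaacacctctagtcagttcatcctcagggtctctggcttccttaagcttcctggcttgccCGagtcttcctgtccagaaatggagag
Znfx1 start, chr2:167043446-167043745 (minus strand): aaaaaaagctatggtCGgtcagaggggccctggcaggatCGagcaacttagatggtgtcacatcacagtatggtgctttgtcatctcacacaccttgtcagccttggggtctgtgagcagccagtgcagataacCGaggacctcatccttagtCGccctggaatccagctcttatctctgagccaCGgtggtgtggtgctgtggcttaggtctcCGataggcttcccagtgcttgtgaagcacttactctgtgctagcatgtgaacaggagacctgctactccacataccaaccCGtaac
Gm51796 start, chr10:41482171-41482470 (minus strand): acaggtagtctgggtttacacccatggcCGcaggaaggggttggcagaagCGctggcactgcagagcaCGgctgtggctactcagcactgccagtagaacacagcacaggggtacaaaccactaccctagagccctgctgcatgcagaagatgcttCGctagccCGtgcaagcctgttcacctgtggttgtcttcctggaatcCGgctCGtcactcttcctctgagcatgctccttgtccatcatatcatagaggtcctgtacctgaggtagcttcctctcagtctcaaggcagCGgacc
Fam71f1 start, chr6:29318890-29319189 (plus strand): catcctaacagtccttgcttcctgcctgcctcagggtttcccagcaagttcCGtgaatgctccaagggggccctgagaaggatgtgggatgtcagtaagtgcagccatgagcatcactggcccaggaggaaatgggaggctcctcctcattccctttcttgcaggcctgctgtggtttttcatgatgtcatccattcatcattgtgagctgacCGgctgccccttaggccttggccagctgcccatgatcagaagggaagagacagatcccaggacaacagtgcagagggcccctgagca
Shisa5 start, chr9:109054616-109054915 (plus strand): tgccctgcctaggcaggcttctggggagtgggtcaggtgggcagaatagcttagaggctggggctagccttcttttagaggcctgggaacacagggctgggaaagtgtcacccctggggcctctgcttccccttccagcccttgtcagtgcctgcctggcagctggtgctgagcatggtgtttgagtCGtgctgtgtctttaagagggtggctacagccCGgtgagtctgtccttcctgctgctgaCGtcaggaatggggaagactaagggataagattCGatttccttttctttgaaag
Ctdsp2 start, chr10:126995363-126995662 (plus strand): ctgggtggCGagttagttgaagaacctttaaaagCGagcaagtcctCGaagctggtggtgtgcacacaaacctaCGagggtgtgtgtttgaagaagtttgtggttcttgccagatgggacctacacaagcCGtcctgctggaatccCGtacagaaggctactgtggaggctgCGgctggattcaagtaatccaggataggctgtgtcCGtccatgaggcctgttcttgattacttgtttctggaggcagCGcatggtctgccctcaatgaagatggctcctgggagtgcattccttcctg
Gm33862 start, chr11:3136826-3137125 (plus strand): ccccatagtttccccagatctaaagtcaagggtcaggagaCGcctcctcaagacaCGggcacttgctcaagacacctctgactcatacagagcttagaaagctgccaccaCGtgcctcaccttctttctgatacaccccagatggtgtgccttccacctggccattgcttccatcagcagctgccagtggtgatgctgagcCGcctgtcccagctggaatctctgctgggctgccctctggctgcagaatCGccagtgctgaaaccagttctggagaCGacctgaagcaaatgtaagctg

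The member over the start of the predicted gene Gm34369 lay in Cracd, which encodes a regulator of actin capping, and had a score of 124.3. Its window held a single CG and 51.0% G and C. The member over Gm51541 lay in Tecr, a gene of fatty acid elongation, scored 119.7 and covered 13 CG, the most of the 6. The member at an internal start of Znfx1, which encodes a helicase with zinc fingers, scored 108.6 and covered 7. Gm51796, in the actin-oxidising monooxygenase gene Mical1, had a score of 100.1 and 8 CG. Internal starts of Fam71f1 and Shisa5 lay under members with scores of 77.8 and 77.2 and held 2 and 4 CG. The windows at Ctdsp2 and at Gm33862 in Sfi1, under shared peaks with scores of 278.7 and 254.1, held 9 and 6. The 2 sets of printed windows thus overlap in CG number.

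Over all start windows the difference lay in the windows rich in CG. At least 10 CG dinucleotides were present in 7 of the 66 windows under members (10.6%, 95% Wilson interval 5.23 to 20.3%). This compares with 23 of 158 under shared AE4 peaks (14.6%, 9.90 to 20.9%), 189 of 594 under H1foo-only peaks (31.8%, 28.2 to 35.7%) and 1422 of all 5018 (28.3%, 27.1 to 29.6%). The classes were not tested against each other, and their peaks also differ in width. The Wilson intervals here, like all below, cover counting only and treat regions as independent, which neighbouring regions are not. The median number of CG was 5 under members, 5 under shared AE4 peaks, 6 under H1foo-only peaks and 5 over all windows. A window counted as under a peak from 1 base in common, so part of its CG can lie outside the peak. In windows wholly under a peak the median was 4 for members (18 windows), 5.5 for shared AE4 peaks (54) and 7 for H1foo-only peaks (225). Median G and C content was 52.8% under members, 56.3% under shared AE4 peaks, 55.0% under H1foo-only peaks and 51.0% over all windows. CG is the only motif searched, and it reads the same on both strands. It was absent from 2 of the 66 windows under members (3.03%) and from 217 of all 5018 (4.32%).

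MicroRNA hairpins, which are cut from longer transcripts and often lie in introns, lay under 3 classes of peaks in different numbers. Of 462 hairpins inside genes by the same rule, 7 (1.52%) met a member, 20 (4.33%) a shared AE4 peak and 68 (14.7%) an H1foo-only peak. Members covered 0.605% of the inside sequence and shared AE4 peaks 0.9753%. The part covered by H1foo-only peaks was not calculated, but they were the most numerous, at 42.7 per Mb against 13.2 for members. The 3 percentages of hairpins are not corrected for the sequence covered. The mature sequences of the 3 hairpins that lay wholly under a member are given 5′ to 3′ with the seed (bases 2 to 8) in capitals, from RefSeq on GRCm38.p6.
mmu-miR-6919-5p: uAGGCCACuggagguggaauugu
mmu-miR-6919-3p: gCUCCUCCuccuggcccacag
mmu-miR-6406: cGCGACCUcaggcugacucaug
mmu-miR-12187-5p: uAAGGGGAgaggugugguguag
mmu-miR-12187-3p: uUCAUUCAccucugcucuugc

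The hairpin of Mir6919 (chr11:50232245-50232306) lay in the glycosyltransferase gene Mgat4b under a member with a score of 99.8, and an H1foo peak stood 42 bp from that member. Mir6406 (chr11:68220892-68221011) lay in Ntn1, which encodes the guidance cue netrin, under a member with a score of 51.0. The hairpin of miR-12187 (chr15:102328648-102328709) lay in the prefoldin subunit gene Pfdn5 under a member with a score of 55.9. The 5 printed seeds all differ.

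Peaks inside genes were AE4-only less often than peaks outside genes and more often than peaks at gene boundaries. Inside genes 11983 of 26192 AE4 peaks were AE4-only (45.8%, 45.1 to 46.4%). At boundaries the share was 31.7% of 6086 peaks (30.5 to 32.9%) and outside genes 60.6% of 14928 (59.8 to 61.3%). The background over all autosomal AE4 peaks was 48.6%. With AE4 scores of at least 75 the share inside genes was 25.7%, from 2305 members. Since the rule chose members by overlap and gene position, these shares describe the lists and carry no test. The same order of the 3 positions held in each quintile of the AE4 scores. In the lowest quintile, with scores of 50 to 53.97, the share was 62.3% inside genes, 50.1% at boundaries and 74.9% outside. In the highest quintile, with scores of 88.54 and over, it was 18.8% inside genes, 12.2% at boundaries and 29.5% outside.

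**Figure D1:**
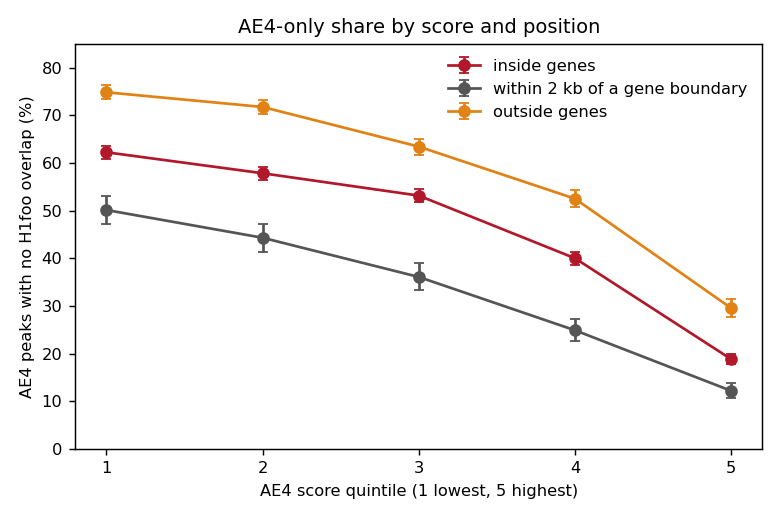
Percentage of AE4 peaks that share no base with an H1foo peak (vertical axis) in quintiles of the AE4 score (horizontal axis), for peaks inside genes, at boundaries and outside genes. Points are shares and bars are 95% Wilson intervals. The line for peaks inside genes goes from 62.3% in the lowest quintile to 18.8% in the highest and stays between the other 2 lines.

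Members were narrower and had lower scores than the AE4 peaks inside genes that met H1foo. The score is the authors' own value per peak, with a lowest value of 50 and no scale named in the files, and is used here only within the AE4 list. Members had a median score of 59.7 (quartiles 53.8 and 70.4), against 72.8 for shared AE4 peaks inside genes (58.3 and 97.6). Their highest score was 268.4, and the highest of the shared peaks was 1036. A score under 60 was found in 6103 members and a score of 100 or more in 571. Median width was 423 bp in members and 537 bp in shared peaks inside genes. AE4-only peaks outside genes had a median width of 419 bp and a median score of 58.8, close to the members. Within quintiles of the score members remained the narrower class, with median widths of 379 bp against 407 bp in the lowest quintile and 647 bp against 785 bp in the highest. A wider peak also has more bases with which to meet an H1foo peak. The rule's thresholds cut through a continuum. The 511 members with an H1foo peak within 100 bp had a median score of 61.4 and a median width of 438 bp. The 312 peaks inside genes that shared no more than 100 bp with H1foo had 63.1 and 457 bp. The 139 members whose centre lay no more than 200 bp beyond the boundary distance had a median score of 58.6, against 60.7 for the 129 AE4-only peaks in genes no more than 200 bp short of it.

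Within 10 kb of an H1foo peak lay 75.2% of members, against 56.3% of AE4-only peaks outside genes. AE4-only peaks at gene boundaries were closer still, with 86.2% within 10 kb and a median distance of 1303 bp. The median distance from a member to the nearest H1foo peak was 2579 bp (quartiles 740 and 9804 bp), against 6924 bp for AE4-only peaks outside genes (1678 and 39557 bp). The members' median depended on the length of the H1foo list and was 5262 bp when this was reduced to as many peaks as the AE4 list, by score. It was 5335 bp with H1foo scores of at least 75. With the full H1foo list it was 5469 bp when an H1foo peak within 1 kb counted as shared, a rule that removes the nearest members by construction. Within 500 bp of an H1foo peak lay 18.9% of members (18.2 to 19.6%), against 10.1% of AE4-only peaks outside genes (9.53 to 10.8%). Within 1 kb lay 30.4% of members and 17.2% of AE4-only peaks outside genes. At the other end, 471 members or 3.93% were more than 100 kb from any H1foo peak, against 16.0% of AE4-only peaks outside genes. In the 50 kb on either side of the centre members had a median of 12 H1foo peaks, shared AE4 peaks inside genes 29, and AE4-only peaks outside genes 5. No H1foo peak centre lay in that window for 850 members (7.09%). The member farthest from H1foo was in Mitf, the melanocyte regulator gene (chromosome 6, 97812998 to 97813441, score 72.0), at 2517543 bp. The next were 2 members in the synaptic adhesion gene Lrrtm4, then 1 each in Tafa4 and Ccser1, all on chromosome 6 and at 1702552 to 2168349 bp.

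**Figure D2:**
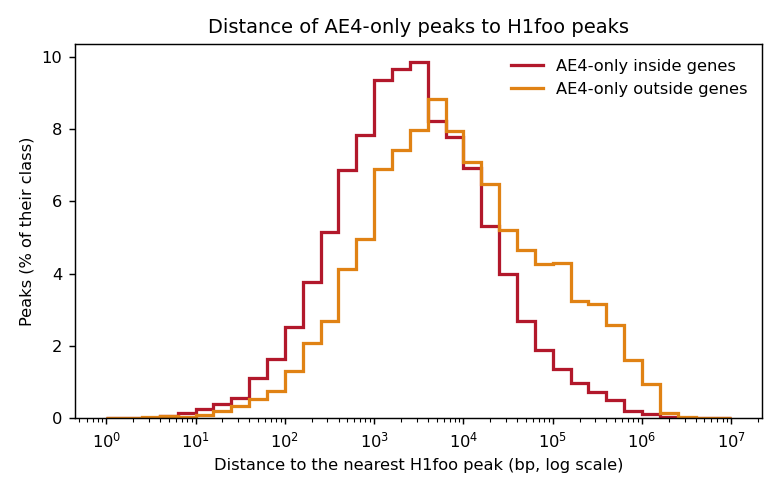
Distribution of the distance to the nearest H1foo peak (horizontal axis, bp, log scale) for AE4-only peaks inside genes and AE4-only peaks outside genes, as a percentage of each class (vertical axis). The curve for peaks inside genes lies to the left, with medians of 2579 and 6924 bp, and the curve for peaks outside genes has the heavier tail beyond 100 kb.

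Members were spread over many genes. The inside sequence, meaning gene spans without the 2 kb on either side of every boundary, came to 906.4 Mb on the autosomes. It held 13.2 members, 15.7 shared AE4 peaks and 42.7 H1foo-only peaks per Mb, and members covered 0.605% of it. Of 16784 genes with such sequence, 5751 held at least 1 member, a background of 34.3%, and 1806 did so with AE4 scores of at least 75. At least 1 shared AE4 peak lay inside 29.6% of these genes and at least 1 H1foo-only peak inside 53.3%. A single member was present in 3143 genes, 2 in 1217, 3 or more in 1391 and 10 or more in 72. Only 97 members lay in overlapping genes, and these count for each of them. The genes with members usually had other peaks as well: 4653 (80.9%) also had an H1foo-only peak inside and 2862 (49.8%) a shared AE4 peak. In 678 genes (11.8%) with 828 members no H1foo peak touched the gene span at all.

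Long genes had members at low density but made up a larger part of their AE4 peaks with them. Density was 24.9 members per Mb in genes of 4 to 10 kb, 27.7 in genes of 10 to 20 kb and 3.24 in genes of 500 kb and over. Shared AE4 peaks went from 76.4 per Mb in the shortest class to 1.14 in the longest, and H1foo-only peaks from 125.6 to 5.80. The AE4-only share of the AE4 peaks was therefore 24.6% in genes of 4 to 10 kb, 39.3% at 20 to 50 kb, 54.1% at 100 to 200 kb and 73.9% at 500 kb and over. At least 1 member lay inside 5.98% of genes of 4 to 10 kb and 72.7% of those of 500 kb and over, which have more sequence to hold a peak. Without chromosome 8 the share went from 27.0% to 79.9% over the same classes. Gene density moved with gene length. For genes with 1 to 4 genes within 500 kb the AE4-only share was 73.0%, at 4.02 members per Mb. With 40 or more genes it was 28.3%, at 27.5 members per Mb. The parts of gene length, gene density and H1foo density in these shares were not tested.

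**Figure D3:**
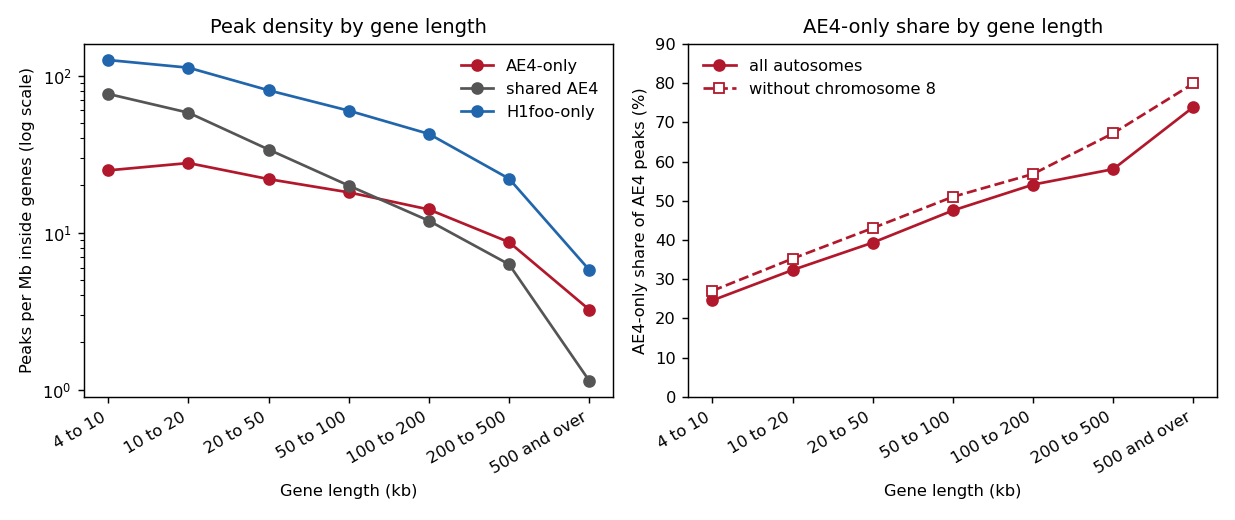
Left, peaks per Mb of inside sequence (vertical axis, log scale) by gene length class in kb (horizontal axis) for AE4-only, shared AE4 and H1foo-only peaks. Right, the AE4-only share of AE4 peaks in percent for the same classes, with all autosomes and without chromosome 8. AE4-only density spans the smallest range, with 24.9 per Mb in the shortest and 3.24 in the longest class, and the share climbs from 24.6% to 73.9%.

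Along genes, members became denser towards the 3′ end, as did the other peaks. RefSeq start sites gave a strand for 7569 of the 9576 genes of at least 20 kb (79.0%). In the first 10% of the length of these genes there were 10.02 members per Mb, 9.28 shared AE4 peaks and 32.8 H1foo-only peaks. In the last 10% there were 14.98 members, 15.9 shared AE4 peaks and 47.8 H1foo-only peaks per Mb. The AE4-only share stayed between 46.0% and 51.9% in all 10 sections. Distance was counted from the nearer gene end only. By this measure members had 22.2 peaks per Mb at 2 to 5 kb from the 3′ end. The value was 14.9 per Mb at 2 to 5 kb from the 5′ end. The AE4-only share was 41.8% at 2 to 5 kb from the 5′ end and 88.9% at 200 to 500 kb from it, where 64 members and 8 shared peaks remained. With the nearer end used, only the longest genes reach that distance. Within genes of 200 kb or more the share was 57.7% at 2 to 5 kb from the 5′ end, from 26 peaks, 52.0% at 20 to 50 kb, 63.9% at 100 to 200 kb and 88.9% at 200 to 500 kb. From the 3′ end of these genes it was 59.3% at 2 to 5 kb, 60.6% at 100 to 200 kb and 80.2% at 200 to 500 kb. The farthest class again held only the longest of these genes, so gene length was not held fixed over the distances.

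Chromosome 8 had the highest density of members and the lowest AE4-only share. It carried 1171 members, 9.77% of all, in 5.23% of the inside sequence, and 22.1% of the shared AE4 peaks inside genes. Member density on it was 24.7 per Mb, against 7.78 on chromosome 14 and 19.6 on chromosome 11 as the lowest and highest of the other 18 autosomes, whose median was 11.9. This was 2.07 times the median of the others for members, 5.61 times for shared AE4 peaks and 1.64 times for H1foo-only peaks. The AE4-only share was 27.2% on chromosome 8, against 41.0% on chromosome 11 to 69.3% on chromosome 13 for the others. The cause of the excess on chromosome 8 was not tested.

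The genes with the most members were long, and 9 of the first 20 lay on chromosome 8. The 20th place was shared, as 5 genes had 15 members, and the least dense of them, St6galnac3 on chromosome 3, was not taken. Wwox, a tumour suppressor gene at a common fragile site (chromosome 8, 114439635 to 115352712), held 45 members, 27 shared AE4 and 69 H1foo-only peaks in 909.1 kb of inside sequence. Cdh13, which encodes a cadherin anchored by lipid, held 24 members, 13 shared AE4 and 46 H1foo-only peaks. The spindle checkpoint gene Mad1l1 and the RNA demethylase gene Fto held 23 members each, with 31 shared AE4 peaks in Mad1l1 and 11 in Fto. Camta1, a transcriptional activator that binds calmodulin, held 21 and Rptor, the substrate-binding scaffold of the mTOR complex, 20. In 12 of these 20 genes members outnumbered shared AE4 peaks, and in 18 H1foo-only peaks outnumbered members. The exceptions to the second count were Arhgap10, with 17 members and 16 H1foo-only peaks, and Tenm3, with 18 and 17.

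The balance of AE4-only and shared peaks differed widely among these 20 genes. Tenm3, which encodes the cell adhesion protein teneurin, had 18 members and 1 shared AE4 peak, an AE4-only share of 94.7%. Its members scored 52.5 to 116.8 and ran over most of its 1297 kb. Slc39a11, a zinc transporter gene, had 17 members and 4 shared peaks, and Prkce, for a protein kinase C, 17 and 5. The guanine exchange factor gene Dock9 had 15 and 4. At the other end stood Zfp469, with 15 members and 57 shared peaks (20.8%), and the calcium channel gene Cacna1a, with 19 and 61 (23.8%). Gli2, the Hedgehog pathway factor, and Disc1, a scaffold of neurons, were close to balance with 17 and 18 and with 15 and 16.

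**Figure D4:**
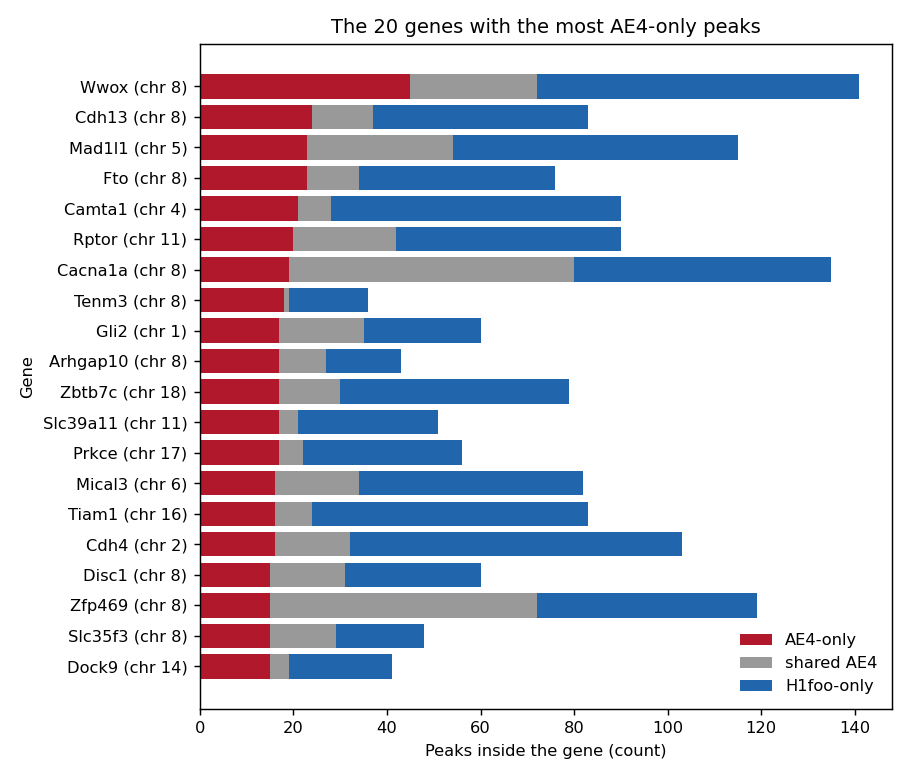
Number of peaks inside each of the 20 genes with the most AE4-only peaks (horizontal axis, count), stacked as AE4-only, shared AE4 and H1foo-only. Wwox stands at the top with 45 AE4-only peaks, and 9 of the 20 genes are on chromosome 8. The grey segment ranges from 1 peak in Tenm3 to 61 in Cacna1a.

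Some genes held members and no H1foo peak anywhere in their span. Galk2, which encodes a sugar kinase (chromosome 2, 125859109 to 125984298), had 5 members at 7.49, 15.004, 18.1, 39.9 and 120.7 kb from its 5′ end. Their scores were 50.3, 95.7, 79.4, 75.1 and 52.6, and the nearest H1foo peak was 7994 bp from the last. The first 4 members were thus gathered towards the 5′ end, apart from the last. Dlg2, for a postsynaptic scaffold, also had 5, 4 of them between 155.0 and 284.0 kb from its 5′ end and the other at 1595 kb, in a gene of 1973 kb. The helix-loop-helix factor gene Tcf4 had 5, with scores of 52.4 to 68.6. Of the 8 genes with 4 members and no H1foo peak, the 7 densest were Tbc1d23, Faxc, Mfsd6, Tmem45a, Dpysl2, the endosome tether gene Eea1 and the kainate receptor gene Grik1, and the other was Hmcn1. Tmem45a had the highest scores of these 7, at 117.5 and 113.9 for its 2 members of just over 1 kb width, and stood at least 110958 bp from H1foo. None of these genes held a shared AE4 peak, which the absence of H1foo fixes.

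Most members stood alone among the peaks of both lists. With peaks of both lists in genomic order, 7651 members stood alone between other peaks, 2788 were in pairs and 1544 in runs of 3 or more. Another member was thus the direct neighbour of 4332 members (36.2%). The median gap between neighbouring members was 36656.5 bp, and 4.41% of gaps were no longer than 1 kb. The longest run had 7 members in Lrba, a gene of vesicle trafficking in immune cells (chromosome 3, 86223456 to 86782694). The 7 lay at 6.38, 262.8, 369.6, 460.5, 545.9, 552.2 and 554.6 kb from its 5′ end, with scores of 50.9, 50.9, 52.9, 82.5, 60.04, 55.5 and 77.7. Only 2 H1foo peaks lay in the span of Lrba, both near its ends. The 7 runs of 6 included one in Nek1, a kinase gene of the primary cilium on chromosome 8, where scores were 51.8 to 149.3. Another crossed from Nemp2 into Mfsd6 on chromosome 1.

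**Figure D5:**
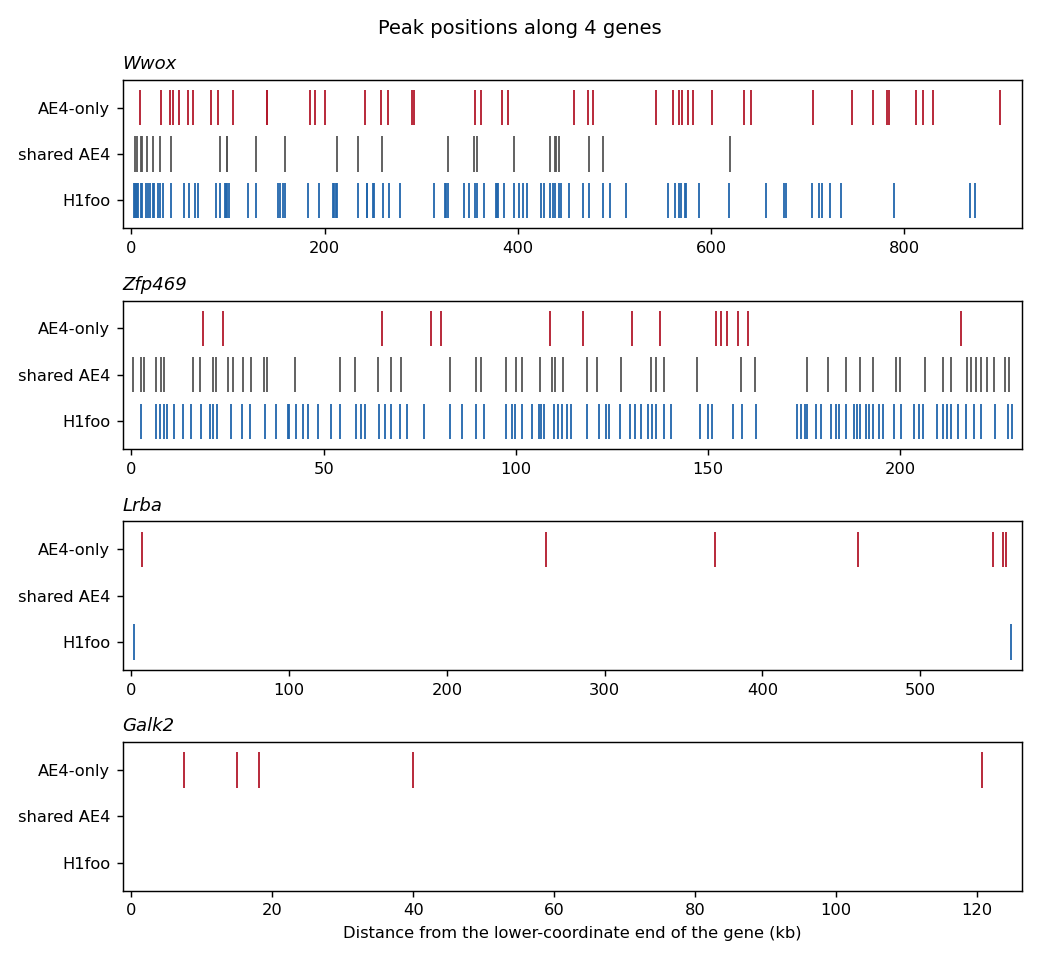
Peak centres (vertical ticks) along Wwox, Zfp469, Lrba and Galk2, by distance in kb from the end of each gene with the lower coordinate (horizontal axis), in rows for AE4-only, shared AE4 and H1foo peaks. Wwox has 45 AE4-only peaks among 95 H1foo peaks, and Zfp469 has 15 among 104. Lrba has 7 between 2 H1foo peaks, and Galk2 has 5 and no H1foo peak.

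Among genes with at least 20 kb of inside sequence and at least 3 members, density was highest in short genes. Coq8a, a kinase-like gene of coenzyme Q synthesis on chromosome 1, had 6 members in 26.4 kb, or 22.7 per 100 kb, with scores of 56.4, 82.9, 85.04, 157.5, 56.7 and 93.4. The matrix metalloprotease gene Mmp2 had 5 members (22.6 per 100 kb), Cand2 had 6 (22.3) and the potassium channel gene Kcnj10 had 6 (20.8). Slc30a6, a zinc transporter gene, had 5 members and no shared AE4 peak, and Pip4k2b, a phosphoinositide kinase gene, likewise 5 and 0. The syntaxin gene Stx2 had 4 members (19.96 per 100 kb) and the adhesion receptor gene Adgra2 had 6 (17.7). All 8 genes named here also held H1foo-only peaks, 3 to 11 each, and the members of Coq8a stood 43 to 2479 bp from H1foo.

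The 10 members with the highest scores included 5 on chromosome 8. The first was in the predicted gene Gm5373 (71836892 to 71839813, score 268.4), followed by Gm21119 (267.9) and 9530057J20Rik (267.3). The members in Gm21119 and 9530057J20Rik were 4325 and 4643 bp wide and lie on chromosome 8 among predicted genes, and the placement of reads there was not tested. Ceacam16, for a protein of the inner ear, followed with 264.3 at 283 bp from an H1foo peak, and its centre was 2200 bp from a boundary. The others were Gm7827 (239.9), Kctd20 (209.6), the taste channel gene Trpm5 (207.5), Ppp1r21 (202.7), the lysosomal galactosidase gene Glb1 (202.5) and the mitochondrial carbonic anhydrase gene Car5a (200.2). In 7 of the 10 an H1foo peak stood within 2 kb.

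Gene groups were read against the backgrounds of 34.3% of genes with a member over all genes and 51.7% over the 8431 genes with at least 20 kb of inside sequence. Over all genes the density was 13.2 members per Mb and the AE4-only share 45.8%. Of 31 lists, 24 had a share of genes with a member above 34.3%, which their length can set, and 15 had a density above that of all genes. Density and the AE4-only share also varied with gene length. They were 27.7 members per Mb and 32.3% in genes of 10 to 20 kb, and 3.24 and 73.9% at 500 kb and over. Most lists below are set beside all genes without matching for length. No list was tested.

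Pluripotency regulators held a member in 9 of 27 genes (33.3%), near the background, and 20 members in all (19.3 per Mb). Their median inside sequence was 10.7 kb, and all genes of 10 to 20 kb held 27.7 members per Mb. Stat3, the factor that carries the LIF signal, had 5, with scores of 68.9, 61.0, 90.4, 76.5 and 50.6. It had 0 shared AE4 and 4 H1foo-only peaks. Esrrb, a nuclear receptor of naive stem cells, had 5 members with scores of 50.6 to 61.8, 4 shared AE4 and 38 H1foo-only peaks. Nr5a2 had 3, the LIF receptor gene Lifr 2, and Il6st, Lin28a, Tcf3, Tcf7l1 and Tfcp2l1 had 1 each. Nanog, Pou5f1 and Klf4 had none, with 3.14, 0.744 and 1.34 kb of inside sequence each. Jarid2, Rif1 and Sall4 also had none, with 186.9, 49.95 and 14.9 kb.

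Genes of chromatin and DNA held members at 13.8 to 20.4 per Mb, against 21.9 for all genes of 20 to 50 kb and 18.1 for those of 50 to 100 kb. The lists' median inside length was 27.8 to 73.8 kb. Histone lysine methylases and demethylases held 76 members in 27 of 49 genes, or 20.4 per Mb, with 14 in Smyd3, 12 in Prdm16 and 7 in Kdm4b. Their number of shared AE4 peaks was also 76. Chromatin remodelling genes held 57 members in 24 of 33 genes (18.7 per Mb), among them Bptf with 8 and Smarca4 with 5. DNA repair genes held 53 in 23 of 45 genes (17.2 per Mb), with 7 each in the mismatch repair gene Msh3 and the recombination gene Rad51b, at 1 shared AE4 peak each. DNA methylation and demethylation enzymes held 9 in 5 of 16 genes (13.8 per Mb), 4 of them in Dnmt3a. Kinesin genes held 53 in 20 of 36 genes (18.9 per Mb), and Kif16b, Kif13a and Kif27 had 7, 6 and 5 members and no shared AE4 peak. H1foo-only peaks in Kif16b, Kif13a and Kif27 numbered 4, 12 and 2.

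Long genes of neurons and cell adhesion held members near the density of all genes of 500 kb and over, with chromosome 8 included. Of 49 such genes 42 had a member, with 3.28 members per Mb against 3.24 for all genes of 500 kb and over, and an AE4-only share of 78.1% against 73.9%. On chromosome 8 lay 105 of the 203 members, 45 of them in Wwox. In the 41 genes elsewhere there were 98 members and 15 shared AE4 peaks, a share of 86.7% against 79.9% for all genes of 500 kb and over off chromosome 8. All genes of that length off chromosome 8 held 2.52 members per Mb. The exact density of the list there was not calculated. With 98 of its 203 members in 41 of its 49 genes, it was below the 3.28 of the whole list. The closeness to all genes of that length was thus seen only with chromosome 8 included. Receptor tyrosine phosphatase genes had 41 members in 15 of 20 genes (5.26 per Mb), with 9 in Ptprn2. Glutamate receptor genes had 38 in 14 of 26 (4.21 per Mb), with 10 in Grik3. Phosphodiesterase genes had 45 in 13 of 26 (8.24 per Mb), of which Pde4d had 12 and no shared AE4 peak, beside 12 H1foo-only peaks. Potassium channel genes had 61 in 27 of 74 (8.58 per Mb), cadherin genes 52 in 10 of 23 (8.44 per Mb) and collagen genes 50 in 20 of 42 (10.5 per Mb).

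Genes of signalling and transport varied around the values of all genes. TBC and Rab GTPase genes, which direct vesicle traffic, had 120 members in 43 of 89 genes or 25.3 per Mb, with 9 in Rab31 and 7 in Tbc1d22a. Wnt and Frizzled genes had 14 in 9 of 24 (23.6 per Mb), with 3 each in Wnt4 and Wnt3 and 0 shared AE4 peaks in either. Wnt4 and Wnt3 also held 1 and 9 H1foo-only peaks. The median inside sequence of the list was 18.4 kb, and all genes of 10 to 20 and of 20 to 50 kb held 27.7 and 21.9 members per Mb. Solute carrier genes had 211 in 115 of 323 (13.6 per Mb) at an AE4-only share of 37.9%. Low AE4-only shares were also found for semaphorin, plexin and neuropilin genes (31.0%, 18 members), forkhead genes (34.3%, 24 members), myosin genes (36.2%, 59 members) and Zfp zinc finger genes (36.3%, 178 members in 89 of 374 genes). Of the Zfp peaks, 27 members and 128 shared AE4 peaks lay in Zfp469 and Zfp423 on chromosome 8. Without this pair, a choice made after the values were seen, the share was 45.1% of 335 AE4 peaks, near the 45.8% of all genes. All genes of 10 to 20 kb had a share of 32.3%, and the median inside sequence of the Zfp list was 14.2 kb. Of 106 olfactory receptor genes with inside sequence 2 had a member and of 135 vomeronasal receptor genes 5. Their median inside sequence was 2.52 and 19.7 kb, and genes of these families have near-identical copies. The part of either in these counts was not tested. The symbol pattern for ribosomal protein genes also took Rps6k kinase genes, which held all 15 of its members.

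The remaining lists spread to either side of all genes. Voltage-gated calcium and sodium channel genes had 63 members in 19 of 27 genes (12.7 per Mb), 10 of them in Cacna2d2. Adhesion G protein-coupled receptor genes had 36 in 13 of 25 (10.2 per Mb), with 9 in Adgrd1. ADAM and ADAMTS protease genes had 28 in 18 of 45 (7.13 per Mb), ABC transporter genes 45 in 25 of 48 (12.7 per Mb) and ubiquitin-specific protease genes 37 in 23 of 47 (13.7 per Mb). Nuclear receptor genes had 34 in 14 of 35 (7.95 per Mb). NADH dehydrogenase genes, a pattern that also takes Ndufaf assembly factors, had 17 in 10 of 38 (32.5 per Mb), with 4 in Ndufs4.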

How the data were processed

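Chromatin immunoprecipitation libraries were made after enzymatic digestion of chromatin, per the labels' protocols. The submitters' processing notes name Bowtie 1.1.2 and build mm10, and the deposited peaks are from MACS per the file headers, with no version. The authors deposited 1 list per antibody with a score per peak; how the 2 libraries were combined is not stated. The numbers of peaks depend on a depth that is unknown.

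Peaks and gene spans were compared in Python 3.11.15, with starts below 0 set to 0. Overlap meant 1 bp in common, and position was that of the peak centre. The code was tested on simulated peaks, and bedtools 2.31.1 gave the same 11983 members. Intervals are 95% Wilson intervals. Exons, introns and peak base composition were not analysed here, as no genome was used; RefSeq start windows took their place. The table gave no strand, which came from RefSeq start sites.

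Members and the 31 gene lists were chosen with earlier results of these data known. The genes named were the 20 with most members, the 10 with most members and no H1foo peak, the 10 densest, those of the 10 highest scores and the leading 3 per list, with ties broken by density. Genes at the ends of other rankings, in runs or at start windows were chosen after their values were seen. Listed genes not matched on autosomes (Smarca1, Atrx, Suv39h1, Phf8 and others) were left out, and some genes and 1 list are not reported here. Alternatives were the overlap rule, score thresholds, the boundary distance, gene sets and chromosome 8.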

Additional observations from a re-analysis of the deposited data

Results flagged for a closer look

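Outside the autosomes to which the rule is limited, 35 AE4-only peaks lay inside genes of chromosome X, among 37 AE4 peaks inside its genes and 215 on the whole chromosome. The AE4 list also held 44 peaks on scaffolds, which were placed in no comparison.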

How the results depend on the processing

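Of 87 values under 11 alternative settings, 0 changed sign, 45 stayed within the counting interval or, for counts, within 1.5 times, and 42 did not. The number of members was 11983, and 2305 with AE4 scores of at least 75, where 1806 genes had a member in place of 5751. The AE4-only share inside genes (45.8%) was 49.4% when at least 50% of the AE4 peak had to be covered, 41.9% and 31.8% when an H1foo peak within 200 bp or 1 kb counted as shared, 25.7% with AE4 scores of at least 75, 60.7% with H1foo scores of at least 75, 60.4% with as many H1foo as AE4 peaks, 44.4% and 48.8% at 1 and 5 kb from boundaries, and 49.4% without chromosome 8. Its difference from the share outside genes (-14.8 points) was -13.5, -16.1, -18.3, -12.2 and -13.8 points under the first 5 of these, -13.5 at 5 kb and -13.1 without chromosome 8. The median distance to H1foo (2579 bp) was 2131, 3176, 5469, 1756, 5335 and 5262 bp under the first 6, 2452 and 3056 bp at 1 and 5 kb, and 2712 bp without chromosome 8. The median width (423 bp) was 427 bp with the 50% rule, 418 bp with the 1 kb rule, 574 bp with the AE4 minimum, 432 and 431 bp with fewer H1foo peaks and 419 bp without chromosome 8. The median score (59.7) was 60.2, 59.2, 87.2, 60.8 and 60.7 under the same settings, chromosome 8 apart. The share of members on chromosome 8 (9.77%) was 8.39% with the 1 kb rule, 12.4% with the AE4 minimum and 10.96% and 10.9% with fewer H1foo peaks. The AE4 minimum and the 200 bp and 1 kb rules remove members by construction. The 200 bp and 1 kb rules thereby lower the share and raise the median distance. The 50% rule and fewer H1foo peaks can only add members and so raise the share. The cause of the other changes was not tested. No paired analysis was possible because each antibody has a single list with no value per library, and for the same reason no replicate could be left out.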

Other observations

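Other annotated genes also lay under members. Long non-coding RNA genes took up 4.36% of the inside sequence and held the centre of 498 members (4.16%), 637 shared AE4 peaks (4.48%) and 2015 H1foo-only peaks (5.20%). Pseudogenes took up 0.341% and held 63 members (0.526%), 87 shared AE4 peaks (0.612%) and 192 H1foo-only peaks (0.496%). At least 1 kb of width was found in 101 members. The widest, of 5141 bp, was in the predicted gene Gm42346 on chromosome 4, and the next 4 were in Gm21119, 9530057J20Rik and 4930467E23Rik on chromosome 8.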
